A study of Mus musculus with 4 samples.

Results

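The genes described here are those of the Hox clusters, the homeobox genes that lie side by side in groups A to D. They were taken as every array probe, controls aside, whose gene name was Hoxa, Hoxb, Hoxc or Hoxd with a number. The rule used names and no measured values, and it found 50 of 41174 probes and 38 of 27370 gene names. HoxA held 11 genes with 14 probes, HoxB 10 genes with 15 probes, HoxC 8 genes with 9 probes and HoxD 9 genes with 12 probes.

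RNA came from cultured mouse germline stem cells, the spermatogonial stem cells of the testis grown in a dish, in 2 groups of 2 samples. The first group took 4-hydroxytamoxifen for 48 h, which activates the CreERT2 recombinase made from the Rosa locus, and the second took DMSO, its solvent. All the cells of both groups carried this recombinase and the CAG-CAT-3FlagNanos2-pA transgene, in which the CAG promoter drives tagged Nanos2 once the recombinase has acted. The cells grew with GDNF and EGF at 20 ng/ml each and FGF2 at 10 ng/ml, on mitomycin-treated fibroblasts of C57Bl6 embryos of day 13.5, which were removed before RNA extraction. No group took the compound without the transgene, so the effects of Nanos2, the recombinase and the compound cannot be told apart.

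Hox proteins are transcription factors that give cells along the head to tail axis their regional identity. Within a cluster the genes are numbered from the anterior end to the posterior end and are switched on roughly in that order, and genes of equal number in different clusters are paralogues that arose by duplication of an ancestral cluster. Fibroblasts and other mesenchymal cells keep a Hox pattern that reflects where in the body they came from. Polycomb complexes hold silent Hox genes in check, trithorax complexes keep active ones on, retinoic acid induces the anterior genes, and Pbx and Meis proteins bind DNA together with Hox proteins. Nanos2 is an RNA-binding protein of male germ cells, and Nanos proteins of the fly act with Pumilio, which binds RNA at a short U-rich motif.

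The arrays carried 60-base probes, and coordinates of probes are those of the deposited files, on mm9. The Hox probes lay at chr6:52112595-52209074 (HoxA from Hoxa2 to Hoxa13, probes on the minus strand), chr11:96057368-96228510 (HoxB), chr15:102758794-102866583 (HoxC) and chr2:74508005-74603059 (HoxD). Which exon or untranslated region each probe matches was not analysed here. Of the probe sequences, 3 are shown first because their genes had the largest difference measured in HoxA, HoxB and HoxD, each as bases 1 to 30, written 5′ to 3′. They lie at chr6:52165656-52165685 (minus strand), chr11:96162563-96162592 (plus strand) and chr2:74566866-74566895 (plus strand).
Hoxa7: gacagttggaaaagcgtctttaagagactc
Hoxb6: tcgagtctcatttcgtccatgtcccccgtg
Hoxd4: tcatatggcaggagctactgagaacataaa

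The motif TGTANATA, the DNA form of a Pumilio-type binding site, was searched on the transcript strand of each probe. It was found in 2 of 50 Hox probes (4.00%) and in 462 of all 41174 probes (1.12%), and on the other strand in 0 of the Hox probes and in 298 of all probes (0.724%). The 2 probes are those of Hoxa11, at chr6:52192110-52192139 (minus strand), and Hoxd13, at chr2:74509273-74509302 (plus strand), shown as 30 bases with the motif in capitals. They are shown because Nanos proteins are known as partners of Pumilio, and a match of letters is no evidence of binding.
Hoxa11: gttcaaaagacTGTAAATAaagaaaccata
Hoxd13: aagattattttTGTAGATAcagtgtgtgtg

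Nanos2 was read first, as a check of the groups. Its signal was 904 and 1070.1 on the 4-hydroxytamoxifen arrays, against 353 and 352 on the DMSO arrays. It was 2.94-fold higher after 4-hydroxytamoxifen, a log2 difference of 1.56 ± 0.10 (SE of the limma fit, n = 2 arrays per group, adjusted p = 0.000842). Whether its probe matches the part of Nanos2 that the transgene carries was not analysed here.

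The arrays were alike in quality. Each held 43379 spots that were not controls, none was saturated (0 on each array), and all 4 arrays sat on 1 slide read in 1 scan. The 75th percentile of the signal, to which each array was scaled, was 676 and 679 on the 4-hydroxytamoxifen arrays and 711 and 718 on the DMSO arrays. Nothing in the labels says that replicates were grown separately. The p-values therefore rest on the spread between 2 arrays per group, which may be technical, and the number of arrays limits the precision. Differences are of log2 processed signal, 4-hydroxytamoxifen minus DMSO, and their errors are standard errors of the limma fit with 2 arrays per group. Of 17537 genes tested, 40.5% were higher and 29.0% were lower in 4-hydroxytamoxifen at an adjusted p under 0.05, 69.5% in either direction, and the Hox counts below are read against these shares. The median difference over all genes was 0.12, and it was -0.06 when the arrays were scaled to their median or to spike-in probes.

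More Hox probes were detected after 4-hydroxytamoxifen than after DMSO. On the 4-hydroxytamoxifen arrays 42 (84.0%) and 38 (76.0%) of the 50 probes were well above background by the scanner's flag, against 32 (64.0%) on each DMSO array. Over all probes the shares were 65.3% and 61.5% on the 4-hydroxytamoxifen arrays and 62.0% and 61.8% on the DMSO arrays. The extra probes lay in HoxA (11 and 10 of 14 probes on the 4-hydroxytamoxifen arrays, 8 on each DMSO array), HoxC (9 and 7 of 9, against 6 on each DMSO array) and HoxD (8 and 7 of 12, against 4 on each DMSO array). In HoxB 14 of 15 probes were detected on every array of both groups. A scanner flag that asks only for a signal above 0 and significant marked 48 and 49 Hox probes on the 4-hydroxytamoxifen arrays and 47 and 46 on the DMSO arrays.

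**Figure D1:**
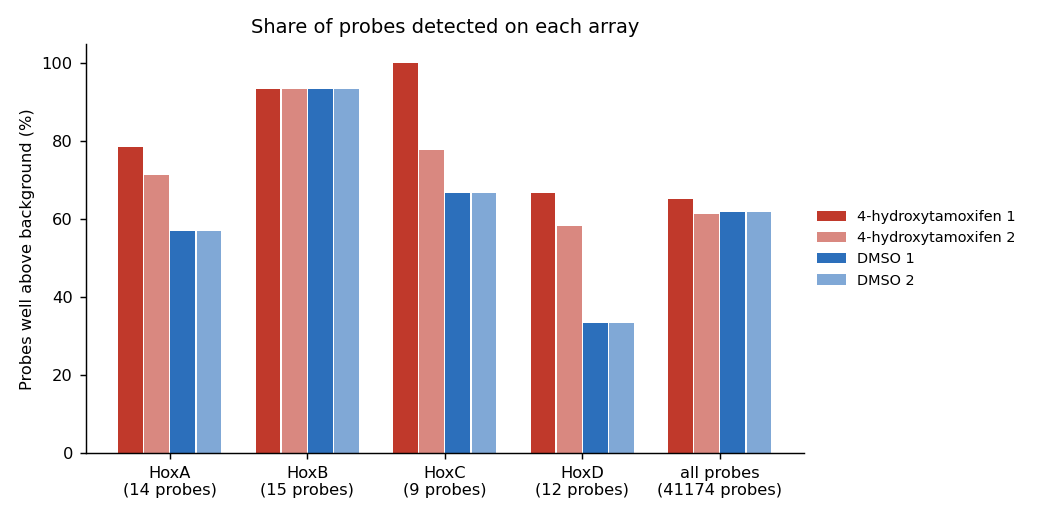
Share of probes well above background (y axis, percent) on each array, for the probes of each Hox cluster and for all probes. Red bars are the 4-hydroxytamoxifen arrays and blue bars the DMSO arrays, replicate 1 dark and replicate 2 pale. HoxB stood at 14 of 15 probes on all 4 arrays, while HoxA, HoxC and HoxD had more probes detected on both 4-hydroxytamoxifen arrays.

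Of the 38 genes, 26 were well above background on all 4 arrays, 2 on 3 arrays (Hoxa4 and Hoxa13), 4 on 2 arrays, 3 on 1 array and 3 on none. Genes well above background on at least 2 arrays were tested, which left 32. The 4 genes with 2 arrays, Hoxc5, Hoxd4, Hoxd9 and Hoxd11, passed only through the 4-hydroxytamoxifen arrays, so they had to be higher there, and counts are also given without them. Hoxa2, Hoxd3 and Hoxd12 were well above background on no array, and Hoxa6, Hoxc8 and Hoxd1 on 1 array each, a 4-hydroxytamoxifen array in all 3 cases, so no fold is given for these 6.

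**Figure D2:**
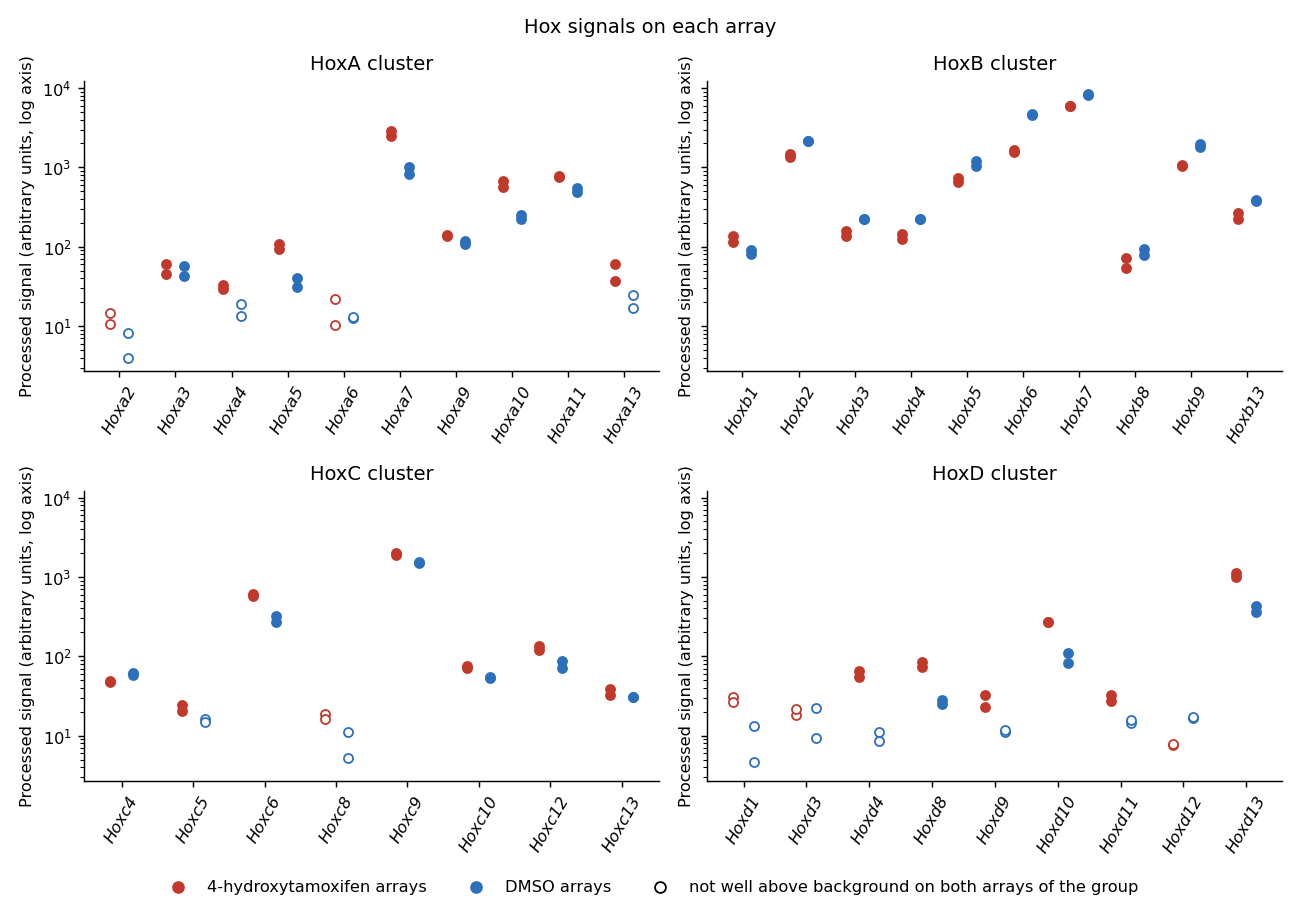
Processed signal on each array (y axis, arbitrary units, log axis) for 37 Hox genes, ordered by paralogue number within each cluster. Red points at the left of each gene are both 4-hydroxytamoxifen arrays and blue points at the right both DMSO arrays, and open points mark a group not well above background on both of its arrays. From Hoxb2 to Hoxb13 the red points lie below the blue ones, and in HoxA and HoxD the red points of most detected genes lie above. Signals of different genes come from different probes and are not comparable with each other.

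The clusters differed in direction. Of the 32 genes tested, 20 were higher and 8 were lower in 4-hydroxytamoxifen, and Hoxa3, Hoxb8, Hoxc4 and Hoxc13 did not pass the threshold. All 8 lower genes were HoxB genes. HoxA had 8 higher and 0 lower of 9 tested (median difference 1.30), HoxC had 5 and 0 of 7 (median 0.52), HoxD had 6 and 0 of 6 (median 1.54), and HoxB had 1 and 8 of 10 (median -0.56). Among the 26 genes well above background on all 4 arrays, 14 were higher and 8 lower, against 39.9% higher and 30.1% lower (70.0% in either direction) of the 15912 genes measured so. In that set HoxA had 6 higher of 7, HoxC 4 of 6 and HoxD 3 of 3, with 0 lower in each. Fitted on such genes alone, Hoxc4 was lower and Hoxc13 higher as well. The values of the groups did not overlap for 31 of the 32 genes, against 86.5% of all genes tested (49.2% higher and 37.3% lower), and the exception was Hoxa3. Separate groups, as given below for single genes, are thus what most genes tested showed.

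**Figure D3:**
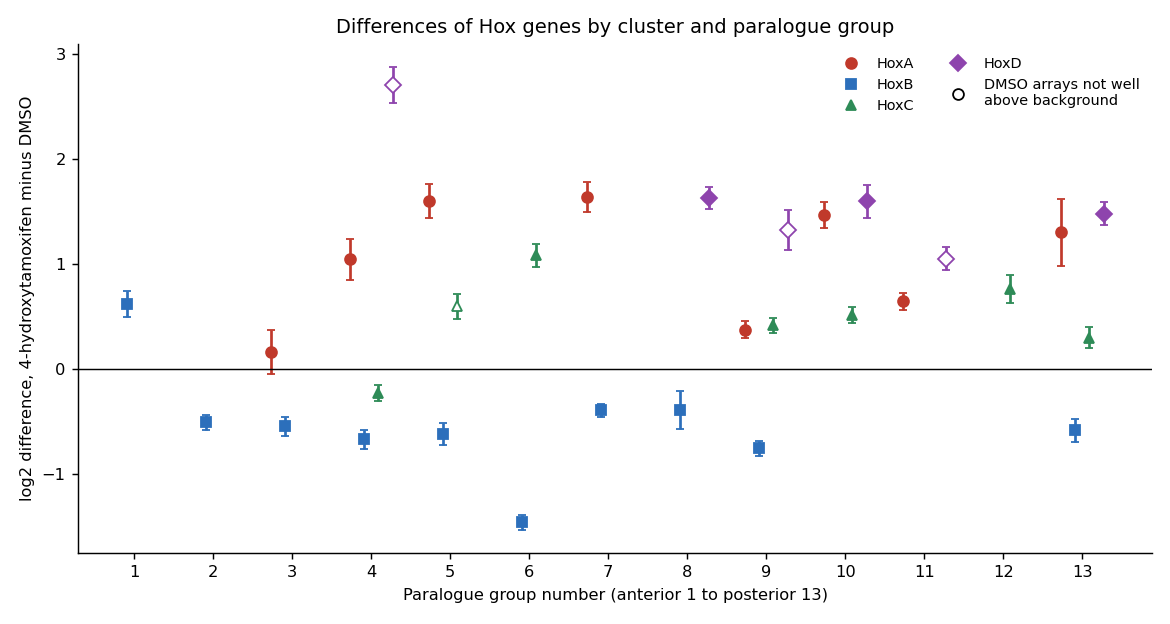
Log2 difference (y axis, 4-hydroxytamoxifen minus DMSO, bars are ± 1 SE of the fit, n = 2 arrays per group) of 31 tested Hox genes against their paralogue group number (x axis). Red circles are HoxA, blue squares HoxB, green triangles HoxC and purple diamonds HoxD, and open symbols mark genes not well above background on either DMSO array. HoxB lies below the zero line except for Hoxb1, and HoxA and HoxD lie above it.

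HoxA genes act along the axis as far as the digits. Hoxa5, needed for normal lung and for cervical and thoracic vertebrae, had 108 and 94.7 on the 4-hydroxytamoxifen arrays and 30.7 and 40.4 on the DMSO arrays. Both 4-hydroxytamoxifen arrays lay above both DMSO arrays, as for 49.2% of all genes tested. The difference was 1.60 ± 0.16 (adjusted p = 0.00188). Hoxa7, a trunk gene known from leukaemia, had 2894 and 2494 on the 4-hydroxytamoxifen arrays, against 817 and 1015 on the DMSO arrays. The difference of 1.64 ± 0.14 (adjusted p = 0.00138) was the largest in HoxA among genes detected on all 4 arrays, and it ranked 459 among the 15912 such genes when ordered from the largest rise.

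Hoxa10, which acts in the uterus and the lumbar spine, had 684 and 571 on the 4-hydroxytamoxifen arrays and 223 and 254 on the DMSO arrays, a difference of 1.47 ± 0.12 (adjusted p = 0.00131). Hoxa11, which patterns the forearm and the uterus and whose probe holds the TGTAAATA shown above, had 784 and 754 on the 4-hydroxytamoxifen arrays and 489 and 549 on the DMSO arrays. That is a smaller difference, 0.65 ± 0.08 (adjusted p = 0.00348), which missed the threshold with spike-in scaling. Hoxa9, a regulator of blood stem cells, differed least among those called, by 0.38 ± 0.08 (adjusted p = 0.0133), with 136 and 142 on the 4-hydroxytamoxifen arrays and 107.2 and 118 on the DMSO arrays. Its call was lost under 6 of 14 alternatives, without either 4-hydroxytamoxifen array or without DMSO replicate 1 among them.

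Hoxa4 and Hoxa13 were well above background on both 4-hydroxytamoxifen arrays and on 1 DMSO array each. Hoxa4, a gene of the cervical region, had 29.3 and 33.0 on the 4-hydroxytamoxifen arrays against 18.8 and 13.4 on the DMSO arrays, a difference of 1.05 ± 0.19 (adjusted p = 0.0103) that was lost without 4-hydroxytamoxifen replicate 2. Hoxa13, which acts in the digits and the genital tubercle, had 61.3 and 37.0 on the 4-hydroxytamoxifen arrays against 17.0 and 24.3 on the DMSO arrays, a difference of 1.30 ± 0.32 (adjusted p = 0.0227) that was lost without 4-hydroxytamoxifen replicate 1. Hoxa3, a gene of the pharyngeal arches and the thymus, had 46.0 and 60.4 on the 4-hydroxytamoxifen arrays and 57.04 and 43.0 on the DMSO arrays. Its groups overlapped, the difference was 0.17 ± 0.21 (adjusted p = 0.512), and its sign turned under quantile, median and spike-in scaling.

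HoxD moved in the same direction as HoxA. Hoxd13, the digit gene at the posterior end of the cluster, had 1109 and 991 on the 4-hydroxytamoxifen arrays, against 366 and 429 on the DMSO arrays. The difference was 1.48 ± 0.11 (adjusted p = 0.00105). Hoxd10, which acts in the lumbar and sacral spinal cord, had 273 and 269 on the 4-hydroxytamoxifen arrays and 81.7 and 109 on the DMSO arrays, a difference of 1.60 ± 0.15 (adjusted p = 0.00168). Hoxd8, a gene of the trunk, had 83.8 and 72.3 on the 4-hydroxytamoxifen arrays and 25.4 and 27.8 on the DMSO arrays, a difference of 1.63 ± 0.10 (adjusted p = 0.000821). In these 3 genes both 4-hydroxytamoxifen arrays lay above both DMSO arrays, as for 49.2% of all genes tested.

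The other 3 tested HoxD genes were not well above background on either DMSO array, so their folds are bounds. Hoxd4, a gene of the hindbrain and neck, had 65.9 and 55.0 on the 4-hydroxytamoxifen arrays against 10.99 and 8.60 on the DMSO arrays and was at least 3.69-fold higher (adjusted p = 0.000788). Hoxd11, a partner of Hoxa11 in the forearm, had 32.2 and 27.3 on the 4-hydroxytamoxifen arrays against 14.3 and 15.8 on the DMSO arrays and was at least 1.82-fold higher (adjusted p = 0.00214). Hoxd9 had 22.9 and 32.9 on the 4-hydroxytamoxifen arrays against 11.3 and 11.8 on the DMSO arrays and was at least 1.68-fold higher (adjusted p = 0.0048). A bound sets the mean of the 4-hydroxytamoxifen arrays against the lowest signal that was well above background on each DMSO array, or the gene's own signal where that was higher. The adjusted p-values are of the limma fit to the measured signals. They do not test the bounds, and the filter had fixed the direction of these 3 genes. The lowest signal well above background is not a strict limit of detection. On DMSO replicate 2 it was 18.4, yet Hoxd3 had 22.2 there and was not well above background. Bounds here and below are therefore approximate and apply to the processed signal. With normexp correction, an alternative described below, Hoxd4 differed by 0.86 on the log2 scale, which is less than its bound.

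HoxC shifted less. Hoxc6, a gene of the lower neck and upper thorax, had 616 and 577 on the 4-hydroxytamoxifen arrays, against 271 and 325 on the DMSO arrays, a difference of 1.08 ± 0.11 (adjusted p = 0.0019). Hoxc9, which sets thoracic motor neuron identity, had 1985 and 1865 on the 4-hydroxytamoxifen arrays and 1488 and 1548 on the DMSO arrays, a difference of 0.42 ± 0.07 (adjusted p = 0.00728). The groups of both genes were separate, as for 86.5% of all genes tested, but those of Hoxc9 by a smaller step. Hoxc10, a lumbar gene, had 75.9 and 70.8 on the 4-hydroxytamoxifen arrays and 55.2 and 53.0 on the DMSO arrays, a difference of 0.52 ± 0.07 (adjusted p = 0.00485). Hoxc12 had 135 and 119 on the 4-hydroxytamoxifen arrays against 70.8 and 87.7 on the DMSO arrays, a difference of 0.76 ± 0.14 (adjusted p = 0.00908), lost without 4-hydroxytamoxifen replicate 1. Hoxc9 and Hoxc10 lost their calls with spike-in scaling, where 2 HoxC genes remained called higher.

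Hoxc5 had 24.0 and 20.4 on the 4-hydroxytamoxifen arrays against 16.2 and 14.7 on the DMSO arrays, which were not well above background, and was at least 1.35-fold higher (adjusted p = 0.0115). Here too the adjusted p is of the limma fit and not of the bound, and the filter had fixed the direction of Hoxc5. Its call was lost with quantile and spike-in scaling and with an intensity trend in the fit. Hoxc13, a gene of hair and nail, had 32.6 and 38.4 on the 4-hydroxytamoxifen arrays and 30.4 and 30.3 on the DMSO arrays, a difference of 0.30 ± 0.10 (adjusted p = 0.0571). Hoxc4 had 48.9 and 47.7 on the 4-hydroxytamoxifen arrays and 61.9 and 57.3 on the DMSO arrays, a difference of -0.23 ± 0.08 (adjusted p = 0.0551). The groups of both genes were separate, in opposite directions, and neither difference passed the threshold in this fit. Hoxc4 was called lower when only genes detected on all 4 arrays were fitted and with quantile or median scaling, where it differed by -0.41 with either. Hoxc13 was called higher when only genes detected on all 4 arrays were fitted and without 4-hydroxytamoxifen replicate 1.

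HoxB ran the other way along nearly its whole length. Hoxb6, a gene of the trunk, had 1543 and 1649 on the 4-hydroxytamoxifen arrays, against 4700.2 and 4526 on the DMSO arrays. It fell by 1.46 ± 0.07 on the log2 scale (adjusted p = 0.000568), the largest fall of any Hox gene tested. Hoxb9, a thoracic gene, had 1074 and 1049 on the 4-hydroxytamoxifen arrays and 1807 and 1966 on the DMSO arrays, a difference of -0.75 ± 0.07 (adjusted p = 0.00162). Hoxb7 had 5941 and 5998 on the 4-hydroxytamoxifen arrays and 8162 and 8352 on the DMSO arrays. Its difference, -0.39 ± 0.06 (adjusted p = 0.00565), was among the smaller ones called, with groups that were far apart for their spread.

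Hoxb5 had 662 and 734 on the 4-hydroxytamoxifen arrays and 1049 and 1214 on the DMSO arrays, a difference of -0.62 ± 0.10 (adjusted p = 0.00749). Hoxb4, which expands blood stem cells when it is forced on, had 126 and 145 on the 4-hydroxytamoxifen arrays and 226 and 225 on the DMSO arrays, a difference of -0.67 ± 0.09 (adjusted p = 0.00403). Hoxb3, a gene of the hindbrain, had 137 and 156 on the 4-hydroxytamoxifen arrays and 225 and 224 on the DMSO arrays, a difference of -0.54 ± 0.09 (adjusted p = 0.00672). In these 3 genes both 4-hydroxytamoxifen arrays lay below both DMSO arrays, as for 37.3% of all genes tested. The same held for Hoxb2, also of the hindbrain, which had 1362 and 1490.3 on the 4-hydroxytamoxifen arrays and 2123 and 2141 on the DMSO arrays, a difference of -0.51 ± 0.07 (adjusted p = 0.00495). Hoxb13, the posterior end of the cluster and a gene of the prostate and the tail, had 223 and 267 on the 4-hydroxytamoxifen arrays and 391 and 378 on the DMSO arrays, a difference of -0.58 ± 0.11 (adjusted p = 0.0110). Hoxb8, a trunk gene, had 54.0 and 73.0 on the 4-hydroxytamoxifen arrays and 79.4 and 94.7 on the DMSO arrays. Its groups did not overlap, and the difference of -0.39 ± 0.18 did not pass the threshold (adjusted p = 0.125), though it was called lower under 4 alternatives.

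Hoxb1, the anterior end of the cluster, was the 1 HoxB gene that was higher. It sets the identity of a hindbrain segment and is known to be kept on by Hox and Pbx proteins. The array carried its probe in 10 spots, whose average was 115 and 138 on the 4-hydroxytamoxifen arrays, against 80.7 and 92.2 on the DMSO arrays. Both 4-hydroxytamoxifen arrays lay above both DMSO arrays, as for 49.2% of all genes tested. The difference was 0.62 ± 0.13 (adjusted p = 0.0136). The call was lost with spike-in scaling, where the adjusted p was 0.0706.

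Promoters, taken as 250 bases before to 50 after the start in RefSeq on GRCm38.p6, were at hand for 22 of the 38 genes, 24 promoters in all. For HoxB they were those of Hoxb1, which was higher, Hoxb4, which was lower, and Hoxb8, which was not called. All 3 are shown as the HoxB promoters at hand, with the letters TGATNNAT, a form of the joint Hox and Pbx site, in capitals on either strand. They lie on the plus strand at chr11:96365508-96365807, chr11:96318017-96318316 and chr11:96281655-96281954.
Hoxb1 promoter: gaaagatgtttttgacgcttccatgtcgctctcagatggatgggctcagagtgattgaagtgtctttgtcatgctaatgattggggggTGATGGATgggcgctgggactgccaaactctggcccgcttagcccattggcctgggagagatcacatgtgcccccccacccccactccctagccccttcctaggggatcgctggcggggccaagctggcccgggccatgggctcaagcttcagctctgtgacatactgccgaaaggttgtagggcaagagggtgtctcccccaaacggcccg
Hoxb4 promoter: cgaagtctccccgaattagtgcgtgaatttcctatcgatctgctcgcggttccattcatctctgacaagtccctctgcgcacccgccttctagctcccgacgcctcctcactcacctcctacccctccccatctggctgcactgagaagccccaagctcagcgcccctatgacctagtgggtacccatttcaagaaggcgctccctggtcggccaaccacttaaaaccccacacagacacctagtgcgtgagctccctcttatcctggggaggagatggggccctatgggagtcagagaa
Hoxb8 promoter: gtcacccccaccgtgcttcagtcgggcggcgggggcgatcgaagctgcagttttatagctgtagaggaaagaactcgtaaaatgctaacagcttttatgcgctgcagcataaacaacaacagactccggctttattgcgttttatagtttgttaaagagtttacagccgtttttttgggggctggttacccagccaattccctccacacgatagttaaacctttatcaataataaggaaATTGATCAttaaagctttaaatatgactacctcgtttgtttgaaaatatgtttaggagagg

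The motif was found once in the Hoxb1 promoter, as TGATGGAT on the plus strand, once in the Hoxb8 promoter, on the opposite strand, and not in that of Hoxb4. With Hoxa2 and Hoxd11 it was found in 4 of the 24 Hox promoters (16.7%), against 8.85% of all 32851 promoters of the same length. The letters CCAAT, searched on both strands, were in 15 Hox promoters (62.5%) against 37.4% of all, and TATAAA in 4 (16.7%) against 13.6% of all. The Hox promoters held a median of 14.5 CG dinucleotides, against 7.0 for all promoters. These are counts of letters, and the covered genes were 9 of 11 in HoxA and 9 of 9 in HoxD but 3 of 10 in HoxB and 1 of 8 in HoxC.

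By position along the axis, both directions were seen in each region. Among the anterior genes, numbers 1 to 3, 2 were higher and 2 lower of 5 tested. Among the central genes, 4 to 8, 7 were higher and 4 lower of 13, and among the posterior genes, 9 to 13, 11 were higher and 2 lower of 14. Without the genes not detected on all 4 arrays, 4 were higher and 4 lower of 10 central genes (median -0.31) and 8 higher and 2 lower of 11 posterior genes (median 0.52). Of all genes detected so 39.9% were higher and 30.1% lower. HoxB held 5 of these central genes, with the 4 lower ones, and 2 of the posterior genes, which were the 2 lower ones. The regions thus differ in their share of HoxB genes, and a trend along the axis cannot be told apart from the clusters. In paralogue group 10, which has no HoxB member, all 3 genes were higher. In group 4 Hoxb4 was lower, and the higher paralogues were Hoxa4, detected on 1 DMSO array, and Hoxd4, whose direction the filter had fixed. In groups 5, 6, 7, 9 and 13 the HoxB gene was lower while at least 1 paralogue of another cluster, detected on all 4 arrays, was higher. Examples were Hoxb6 at -1.46 beside Hoxc6 at 1.08 and Hoxb7 at -0.39 beside Hoxa7 at 1.64. These are log2 differences of each gene between the groups, and the difference between clusters was not tested.

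A second probe was on the array for 12 genes, and for 6 of them both probes were tested. Hoxb6 differed by -1.46 and -0.82 with its 2 probes, Hoxb9 by -0.75 and -1.44, Hoxb3 by -0.54 and -0.85 and Hoxd13 by 1.48 and 1.22. Both probes of each of these 4 genes were called in the same direction when probes were tested one by one, where 36.4% of 26393 probes were higher and 30.8% lower, 67.3% in either direction. Their sizes differed by up to 0.69 on the log2 scale, so the size of a single gene's change depended on the probe. The second Hoxa13 probe had 24.3 and 28.6 on the 4-hydroxytamoxifen arrays against 5.92 and 13.4 on the DMSO arrays, neither of them well above background. It passed the filter only through the 4-hydroxytamoxifen arrays, was at least 1.62-fold higher, and is not counted with the others. For Hoxb2 the probes lie on opposite strands, as the pair shown here as bases 1 to 30, at chr11:96215122-96215151 (plus strand) and chr11:96211890-96211919 (minus strand).
Hoxb2: tggtaaaactccttccaacgaaatctcagg
Hoxb2 opposite strand: gtaatgtattctatggtgaggcacctatga

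HoxB is read on the plus strand, and the plus strand probe of Hoxb2 is the one reported above. The minus strand probe carried the Hoxb2 name but faces the other way, and which transcript it reads was not analysed here. It had 397 and 435 on the 4-hydroxytamoxifen arrays and 477 and 515 on the DMSO arrays, a difference of -0.18 ± 0.09 that did not pass the threshold (adjusted p = 0.133).

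Markers of embryonic fibroblasts, the cells used as feeders, moved in the direction of HoxA, HoxC and HoxD. Most tested markers of Sertoli and Leydig cells and of macrophages, blood and endothelium, given below, did so too. Of 27 tested markers of embryonic fibroblasts, 26 were higher in 4-hydroxytamoxifen and 0 lower, with a median difference of 0.96, and all 27 were detected on all 4 arrays. Of all genes detected on all 4 arrays 39.9% were higher and 30.1% lower. The largest differences among the fibroblast markers were those of Thbs1 (1.49), Pdgfrb (1.40) and Twist2 (1.31). The summed signal of the 27 markers was 569721 and 542373 on the 4-hydroxytamoxifen arrays and 298348 and 345925 on the DMSO arrays. The 4 with the highest signal were S100a4 (difference 1.01), Col1a2 (0.69), Vim (0.63) and Fbln2 (0.86). Of 15 markers of spermatogonia detected on all 4 arrays, 12 were lower and 1, Nanos2, was higher, with a median of -0.86, as with Nanos3 at -4.76, Sohlh2 at -3.78 and Gfra1, the receptor of GDNF, at -2.44. In bulk RNA fewer cells of a type and less RNA per cell cannot be told apart, and the part of feeder RNA in the Hox differences was not tested.

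The 2 arrays of a group differed slightly in the fibroblast markers, whose sum was higher on 4-hydroxytamoxifen replicate 1 than on replicate 2 and higher on DMSO replicate 2 than on replicate 1. Among genes detected on all arrays, the same order in both groups was seen in 5 of 7 HoxA, 3 of 6 HoxC and 3 of 3 HoxD genes. It was seen in 1 of the 10 HoxB genes and in 31.1% of all genes. Genes read on the same 2 arrays per group are not independent, and what sets this order was not tested. The mean log2 signal of HoxA, relative to the DMSO mean, was 1.09 and 1.02 on the 4-hydroxytamoxifen arrays and -0.05 and 0.05 on the DMSO arrays. That of HoxC was 0.50 and 0.45 on the 4-hydroxytamoxifen arrays and -0.03 and 0.03 on the DMSO arrays, and that of HoxB was -0.61 and -0.45 on the 4-hydroxytamoxifen arrays and -0.03 and 0.03 on the DMSO arrays. Fibroblast markers stood at 0.95 and 0.89 on the 4-hydroxytamoxifen arrays and -0.09 and 0.09 on the DMSO arrays.

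**Figure D4:**
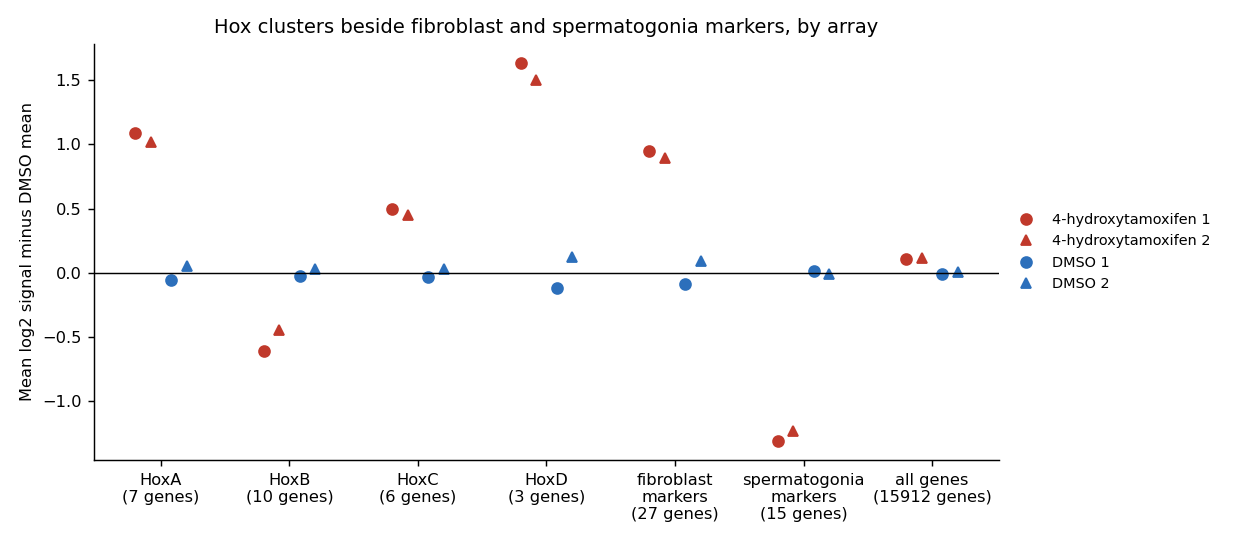
Mean log2 signal of each array minus the mean of the DMSO arrays (y axis), over the genes detected on all 4 arrays, for each Hox cluster, for markers of fibroblasts and of spermatogonia and for all genes, with the number of genes below each name. Red symbols are 4-hydroxytamoxifen arrays and blue symbols DMSO arrays, circles replicate 1 and triangles replicate 2. HoxA, HoxC and HoxD lie on the side of the fibroblast markers (0.95 and 0.89 on the 4-hydroxytamoxifen arrays) and HoxB on that of the spermatogonia markers. Markers of Sertoli and Leydig cells and of macrophages, blood and endothelium are not drawn.

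Of 9 tested markers of Sertoli and Leydig cells 6 were higher and 2 lower (median 0.82). Cldn11 (3.59), Dhh (1.33) and Clu (1.22) were higher, and Wt1 (-0.88) and Cyp17a1 (-0.43) lower. Of 12 tested markers of macrophages, blood and endothelium 8 were higher and 0 lower (median 1.02), with Hba-a1 (1.44), Adgre1 (1.40) and Aif1 (1.40) the largest. Of all genes tested 40.5% were higher and 29.0% lower. The part of these cell types in the Hox differences was not tested.

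Of 11 TALE class genes, the cofactors that bind DNA with Hox proteins, 5 were higher and 2 lower (median 0.21, against 0.12 for all genes). Over all genes 40.5% were higher and 29.0% lower, so the share that was higher was near the background. Meis1 had 69.1 and 66.1 on the 4-hydroxytamoxifen arrays and 22.9 and 26.6 on the DMSO arrays, a difference of 1.53 ± 0.09. Meis2 was higher by 1.18 ± 0.09, while Pbx2 and the repressor Tgif2 differed by -0.70 ± 0.07 and -0.84 ± 0.09. Of the 8 ParaHox and Evx genes, relatives of Hox genes outside or at the edge of the clusters, 2 were tested, Gsx1 and Evx2, and 0 passed in either direction, by limma's adjusted p.

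Chromatin regulators that act on Hox genes moved in both directions. Of 31 Polycomb genes 15 were lower and 8 higher (median -0.21), against 29.0% lower and 40.5% higher of all genes, and the largest fall was that of Ezh2, the enzyme that methylates histone H3 at lysine 27. Ezh2 had 513 and 491 on the 4-hydroxytamoxifen arrays against 1842 and 1749 on the DMSO arrays, a difference of -1.76 ± 0.07 (adjusted p = 0.000454). Cbx2, a reader of that mark, differed by -1.38 ± 0.07 and Mtf2, a PRC2 partner, by -1.31 ± 0.08, while Phc3 (1.21 ± 0.13), Cbx7 (1.05 ± 0.07) and Phc2 (0.99 ± 0.06), subunits of PRC1, were higher. Of 16 trithorax genes and demethylases 10 were lower and 1 higher (median -0.52). Kdm6b, which removes the mark that Ezh2 sets, differed by -1.13 ± 0.08, Men1 by -1.06 ± 0.07 and Dpy30, a core subunit of the trithorax enzymes, by -0.97 ± 0.06, and Mllt3 was higher by 0.80 ± 0.08.

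Of 16 tested genes of retinoic acid receptors and handling 8 were higher and 3 lower (median 0.33). Without Cyp26a1, which passed the filter only through the 4-hydroxytamoxifen arrays, 7 were higher and 3 lower of 15 (median 0.12), against 40.5% and 29.0% of all genes. Among the 14 detected on all 4 arrays 7 were higher and 3 lower (median 0.33), against 39.9% and 30.1% of all such genes. Rdh10, which makes retinal, differed by 1.58 ± 0.07, and of the enzymes that break retinoic acid down Cyp26b1 differed by 1.37 ± 0.21 and Cyp26a1 was at least 1.72-fold higher. Cyp26a1 had 30.8 and 25.4 on the 4-hydroxytamoxifen arrays against 11.7 and 10.3 on the DMSO arrays, neither of them well above background. The receptors Rxrg, Rxrb and Rarg differed by -1.35 ± 0.10, -0.82 ± 0.07 and -0.74 ± 0.12. Of 17 trunk mesoderm factors 12 were higher and 2 lower (median 0.76). Wnt3a, Pax9 and 2 others passed the filter only through the 4-hydroxytamoxifen arrays, and among the 13 detected on all 4 arrays 8 were higher and 2 lower (median 0.71), against 39.9% and 30.1% of all such genes.

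The trunk signal Wnt3a had 48.5 and 45.4 on the 4-hydroxytamoxifen arrays, against 5.61 and 6.14 on the DMSO arrays, which were not well above background, and was at least 2.88-fold higher. Pax9 was at least 1.28-fold higher by the same kind of bound, with 16.2 and 26.99 on the 4-hydroxytamoxifen arrays and 3.51 and 4.06 on the DMSO arrays. Pax1, which with Pax9 builds the vertebrae, had 114 and 122 on the 4-hydroxytamoxifen arrays and 22.6 and 23.2 on the DMSO arrays, a difference of 2.44 ± 0.07. The 2 lower members were the Lin28 genes, which block let-7 maturation: Lin28a differed by -1.73 ± 0.11 and Lin28b by -0.71 ± 0.07.

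Genes beside HoxB, HoxC and HoxD moved in both directions. Of all genes tested 40.5% were higher and 29.0% lower. Within 500 kb of HoxB on mm9, 4 genes were higher and 8 lower of 18 tested (median -0.31). Within 500 kb of HoxC 11 were higher and 6 lower of 24 (median 0.25), and beside HoxA 2 of 2 were higher and beside HoxD 1 was higher and 1 lower of 3. In a list of 36 tested flanking genes, chosen by name, 11 were higher and 16 lower (median 0.02). Skap1, beside HoxB, had 1942 and 2125 on the 4-hydroxytamoxifen arrays against 491 and 501 on the DMSO arrays and differed by 2.11 ± 0.07, the opposite direction to Hoxb2 to Hoxb13. Skap2, beside HoxA, differed by 1.43 ± 0.07 and Chrna1, listed for the HoxD side, by 1.12 ± 0.06. Cbx5 beside HoxC and Igf2bp1 beside HoxB differed by -1.19 ± 0.07 and -0.91 ± 0.16. Hnrnpa1 differed by -0.80 ± 0.07, but another of its probes was higher by 1.25, so its direction depended on the probe.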

How the data were processed

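The deposited scanner files hold intensity values per spot on a linear scale, background-subtracted and detrended by Agilent Feature Extraction, in version 10.7.3.1 per the file headers and in version 9.5 per the submitters' processing notes. RNA was labelled from 0.20 µg, per the labels' protocols. The authors' deposited value table holds log2 values of the same arrays, each equal to that of the processed signal shifted by a constant of its array. Its column medians were 6.35 and 6.35 for 4-hydroxytamoxifen and 6.16 and 6.18 for DMSO, and it served as an alternative.

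Controls and spots with an outlier mark (60 to 71 per array) were dropped, spots of 1 probe averaged, and log2 processed signals centred on each array's 75th percentile. The lowest signal well above background was 15.0 to 19.5. Each gene took the probe with the highest mean among those well above background on at least 2 of 4 arrays. Names were updated through RefSeq (GRCm38.p6) for 33634 of 41174 probes, and 2 probes that only the updated names call Hox were not included. limma 3.58.1 (R 4.3.3) fitted the group as the only term, with eBayes and Benjamini-Hochberg adjustment over all genes at 0.05. On simulated data this fit recovered 52 of 100 genes changed 2-fold and 81 of 100 changed 4-fold. These were the only genes changed among 17536, whereas 69.5% of genes were called in the data. The recovered shares thus do not measure how often the fit found changes of these sizes here. A gene that was not called is still not shown to be unchanged. An exact permutation test of 2 against 2 arrays cannot give a two-sided p under 0.333. The labels do not say whether equal replicate numbers mark pairs. The correlation of their deviations was -0.04, which cannot settle this with 2 arrays per group.

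By the rule, Hox genes are named with their values; a few named genes are left out here. From each list the rule named the 3 called members with the largest difference in each direction, and from the fibroblast list also the 4 with the highest signal. Members and lists were chosen with earlier results of these data known, and Gsx1, Evx2 and the second probes were named after their values were seen. Alternatives were normexp correction (offset 50), scaling by quantiles, the median or spike-in probes, other filters, the mean of a gene's probes, the value table, a replicate block, an intensity trend and leaving out each array.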

Additional observations from a re-analysis of the deposited data

How the results depend on the processing

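Of the 32 tested Hox genes, 19 kept their direction and their side of the threshold under every one of the 14 alternatives that tested them. Of these, 16 were tested under all 14. The other 3, Hoxd4, Hoxd9 and Hoxd11, were not tested where genes had to be detected on all 4 arrays. The filter had fixed the direction of these 3 genes, so a kept direction says nothing about them. The sign turned only for Hoxa3, which was not called. Hox genes called higher numbered 14 with spike-in scaling and 18 to 20 when 1 array was left out, against 20, and those called lower 8 to 9 with 1 array left out, against 8. HoxC genes called higher fell to 2 with spike-in scaling, against 5. HoxD genes called higher were 3 where genes had to be detected on all 4 arrays, against 6, because that setting tests 3 HoxD genes. With 1 array left out, genes called higher were 6 to 8 in HoxA, 5 in HoxC and 6 in HoxD, and HoxB genes called lower were 8 to 9. Probes called higher were 19 to 22 and called lower 11 to 12. A block for the replicate number, which the labels do not call a pairing, gave 20 genes higher and 9 lower, the addition being Hoxb8. Normexp correction, which adds an offset to every signal, made 16 of the 32 differences smaller by over 1.5 times and changed 0 calls; Hoxd4 then differed by 0.86 and Hoxd8 by 0.65. The slide and scan could not be fitted as blocks, since all arrays share 1 of each. Dim Hox genes, near the lowest signal well above background, are the least certain. Of 308 counts over the gene lists and alternatives, 298 stayed within 1.5 times. The exceptions were flanking genes called lower (10 without 4-hydroxytamoxifen replicate 1, against 16), ParaHox and Evx genes called higher (3 with no filter on dim probes, against 0), trunk mesoderm factors called lower (1 with probes averaged per gene, against 2), Sertoli and Leydig markers called lower (1 under 3 settings, against 2) and macrophage, blood and endothelium markers called lower (1 under 4 settings, against 0).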
